A study of Mus musculus with 2 samples.

Results

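The genes described here encode the extracellular matrix of pSM44 mouse embryonic stem cells: collagens, laminins, nidogens, the heparan sulfate proteoglycans perlecan and agrin, fibronectin, Sparc, fibrillins, vitronectin, lysyl oxidases, matrix metalloproteinases (Mmp) and their tissue inhibitors (Timp). They were chosen by a pattern on gene symbols, which matched 73 of the 15127 protein-coding genes in the count table. The pattern matched 96 genes of the GENCODE M21 annotation (GRCm38), so 23 annotated genes were not listed. Col4a3bp, with 391 counts, was matched by its name only. It encodes a ceramide transfer protein that was named for binding an antigen of type IV collagen, and it belongs to none of the matrix classes below, which left 72 listed genes.

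The series mapped genome structure together with nascent RNA by RD-SPRITE, and the poly(A) RNA-seq analysed here measured steady-state transcripts. All cells were of 1 line and 1 group: female embryonic stem cells from a cross of 129 and castaneous mice, in which a tetracycline-inducible promoter drives Xist on the 129 allele at its endogenous position. Xist RNA shuts down the X chromosome that makes it. They grew without serum in 2i/LIF, a medium that keeps stem cells naive through the cytokine LIF and a pair of kinase inhibitors, and received doxycycline at 2 μg/mL for 24 h. The labels name 2 libraries, but the table has 1 count column with a total of 10017978 counts. Each gene therefore had 1 value, without replicate error or a test between conditions, and no untreated cells were analysed here. In such bulk RNA, fewer cells that make a transcript and less transcript per cell cannot be told apart.

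A basement membrane is a thin sheet of matrix under epithelial cells. Laminin trimers of an alpha, a beta and a gamma chain form a network on the cell surface, type IV collagen forms another, and nidogens, perlecan (Hspg2) and agrin (Agrn) join them. Fibrillar collagens instead build the rope-like fibrils of connective tissue. In the early mouse embryo, laminin and type IV collagen are made around implantation, when the epiblast and the primitive endoderm lay down a basement membrane between them, and fibril-rich connective tissue comes later from mesenchymal cells.

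Basement membrane genes were more abundant than fibrillar collagen genes, although similar shares of both were detected. Levels are given as CPM (counts per 1000000 counts in the table) or, for any comparison between genes, as CPM per kilobase of exon. The limit for calling a gene detected was CPM 1, which took 11 counts. The 21 listed basement membrane genes had a median level of 11.0 CPM per kilobase, against 0.600 for the 8 listed fibrillar collagens and 3.80 for all listed genes with a known exon length. On the log2(CPM per kilobase + 1) scale the basement membrane and fibrillar medians were 3.59 and 0.68, a difference of 2.91. The 95% Poisson limits of the single counts put it between 2.68 and 3.13, which covers counting error only. The difference was 0.56 per kilobase of gene span, with medians of 0.78 and 0.22 on that log2 scale. Both of these medians stand for levels below 1 per kilobase of span, where the added 1 narrows a difference. The 0.56 is therefore not on a par with the 2.91. The length used also mattered. Without the added 1, the middle basement membrane gene per kilobase of span, Col4a1, stood at 0.720. The middle fibrillar collagens, Col1a2 and Col5a3, stood at 0.179 and 0.153, a smaller gap than 11.0 against 0.600. Genes are not replicates, so no test was made.

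Of 23 annotated basement membrane genes, 14 were detected, or 60.9% (Clopper-Pearson 95% interval 38.5 to 80.3). Of 11 annotated fibrillar collagens, 6 were detected, or 54.5% (23.4 to 83.3). The background share was 55.1% of annotated and 80.1% of listed protein-coding genes. Both shares lay near that of annotated genes, so detection alone was not a result about either class. The classes differed in height. Among the basement membrane genes 12 of 21 stood above the highest fibrillar collagen, Col5a1, and the same 12 stood above the median of all listed genes, as against 1 of 8 fibrillar collagens. The ranges still overlapped, since 7 listed basement membrane genes were under CPM 1. Summed over their listed members, the levels came to 345 CPM per kilobase for the basement membrane and 8.56 for the fibrillar collagens, a ratio of 40.3. Nid2 alone gave 118 of the 345, and Col5a1 gave 5.30 of the 8.56. Fn1, at 80.7 CPM per kilobase, was in neither class, and counting it with the fibrillar genes would make the ratio far smaller.

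**Figure D1:**
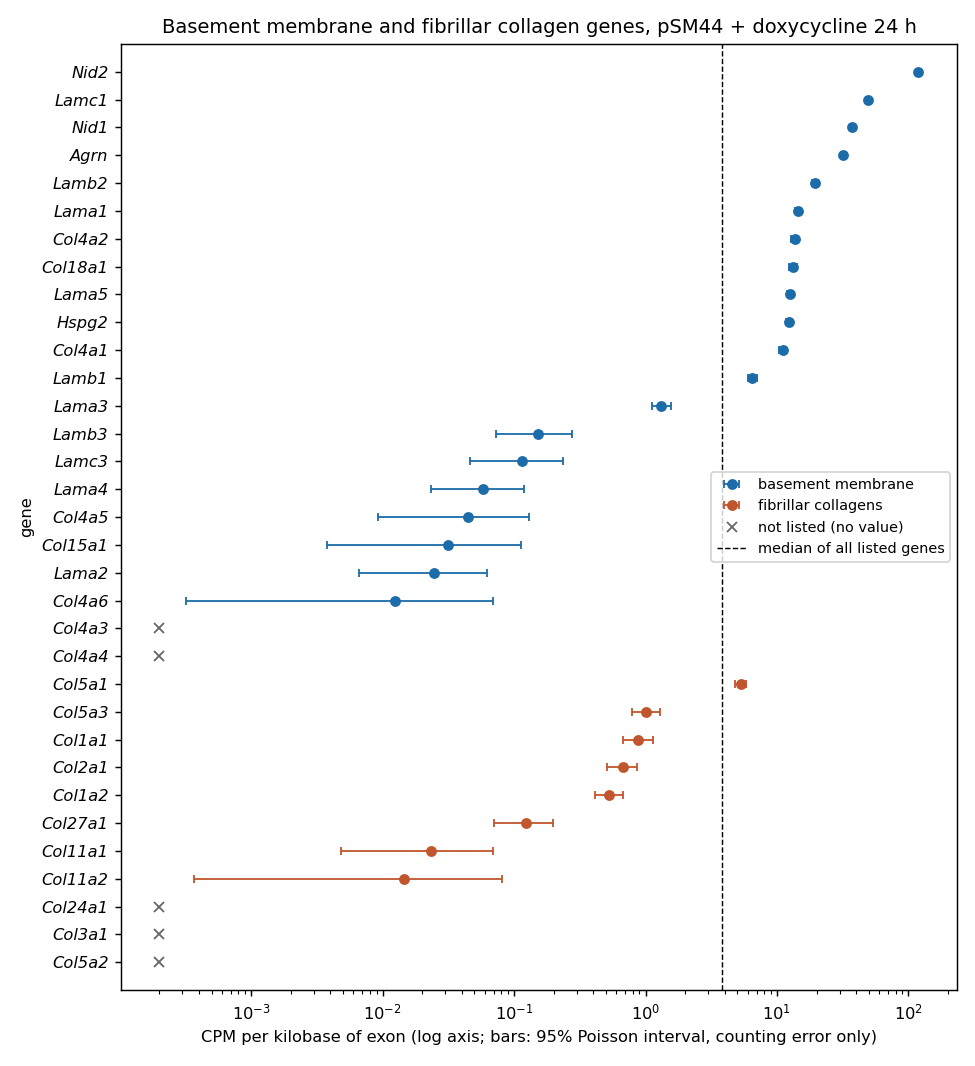
Level of each basement membrane gene reported here (blue) and fibrillar collagen gene (orange) in CPM per kilobase of exon on a log axis, with 95% Poisson intervals that cover counting error only; crosses at the left edge mark genes that were not listed and have no value. Of the blue points, 12 lie right of the dashed median of all listed genes (3.80), and of the orange points only Col5a1 does.

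The nidogens, which link the laminin and type IV collagen networks, were among the 3 highest basement membrane genes. Nid2 (chr14:19751265-19811787) had 6132 counts, or 118 CPM per kilobase (95% Poisson interval 115 to 121). It ranked 400 among the 15052 listed genes with a known exon length. Nid1 had 2592 counts and 37.3 CPM per kilobase. The level of Nid2 was 3.17 times that of Nid1 (exact binomial interval 3.03 to 3.33). The proteoglycan genes followed at lower levels. Agrn, whose product is best known for clustering acetylcholine receptors at the neuromuscular junction, had 2973 counts and 32.0 CPM per kilobase. Hspg2, which encodes perlecan, had 1764 counts and 12.3 CPM per kilobase.

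Laminin chains were led by Lamc1, the gamma chain found in most laminin trimers. Lamc1 (chr1:153218922-153332786) had 4078 counts and 49.2 CPM per kilobase (95% Poisson interval 47.7 to 50.7). Lamc3 was far lower, with 7 counts. Among beta chains, Lamb2 had 1185 counts and 19.4 CPM per kilobase, and Lamb1 had 646 counts and 6.50 CPM per kilobase. Lamb3, the beta chain of an epidermal laminin, had 10 counts and stood just under the detection limit at CPM 0.998.

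The alpha chains, which carry the main cell-binding domains, were led by a pair at near levels. Lama1, the alpha chain of the main early embryonic laminin, had 1400 counts and 14.4 CPM per kilobase. Lama5, a widespread alpha chain of epithelia and vessels, had 1443 counts and 12.6 CPM per kilobase. Their ratio was 1.14 (exact binomial interval 1.06 to 1.23), but it fell on the other side of 1, at 0.970, on counts without a length correction and at 0.383 per kilobase of gene span. Lama3 had 142 counts, Lama4 7 and Lama2, the alpha chain of muscle laminin, 4. All 11 laminin chain genes were listed, and 7 were detected, or 63.6% (Clopper-Pearson 95% interval 30.8 to 89.1), near the background of 55.1%.

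Summed by class, the chains did not stand at equal levels. Alpha chains came to 28.5 CPM per kilobase, beta chains to 26.1 and gamma chains to 52.3. The alpha to gamma ratio was 0.544 (exact binomial interval 0.520 to 0.571) and the beta to gamma ratio 0.499 (0.472 to 0.527), whereas a trimer holds 1 chain of each class. Per kilobase of gene span, the ratios were 1.03 and 3.02, so the order of the classes rests on the length used. These are transcript levels, and protein was not measured.

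Type IV collagen, the collagen of basement membranes, is encoded by 6 genes that lie in pairs, head to head, and the pairs differed in level. Col4a1 (chr8:11198423-11312826, minus strand) had 825 counts and 11.0 CPM per kilobase, and Col4a2 (chr8:11312805-11449287, plus strand) had 903 counts and 13.6. The Col4a1 to Col4a2 ratio was 0.810 (exact binomial interval 0.736 to 0.891), and it turned to 1.09 per kilobase of gene span. Other annotated genes cover 23.7% of the exonic bases of Col4a1 and 16.6% of those of Col4a2. Col4a5 and Col4a6 on chromosome X had 3 counts and 1 count. Neither Col4a3 nor Col4a4 on chromosome 1, whose chains form the mature kidney network, was listed, and 50% of the exonic bases of Col4a3 lie under another gene.

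The annotated starts of the pairs lie at different distances, and their sequences are shown because the pairs differed in level. Those of Col4a1 and Col4a2 overlap by 22 bases, those of Col4a4 and Col4a3 have 71 bases between them, and those of Col4a6 and Col4a5 have 1308. The sequences below, from the RefSeq start table on GRCm38.p6, are the shared and the intervening bases on the plus strand, with the GC box GGGCGG or its complement CCGCCC in capitals.
Col4a1 and Col4a2, chr8:11312805-11312826: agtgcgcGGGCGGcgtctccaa
Col4a4 and Col4a3, chr1:82586850-82586920: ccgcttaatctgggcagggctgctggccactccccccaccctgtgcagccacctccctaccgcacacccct
The stretch shared by Col4a1 and Col4a2 holds 1 GC box, and the longer one holds none. In the 250 bases before their RefSeq starts, Col4a5 and Col4a6, the low pair on chromosome X, have 1 GC box each. The same windows hold 2 for Col4a2, 0 for Col4a1 and 0 for Col4a4. A link between the GC box and level was not tested.

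**Figure D2:**
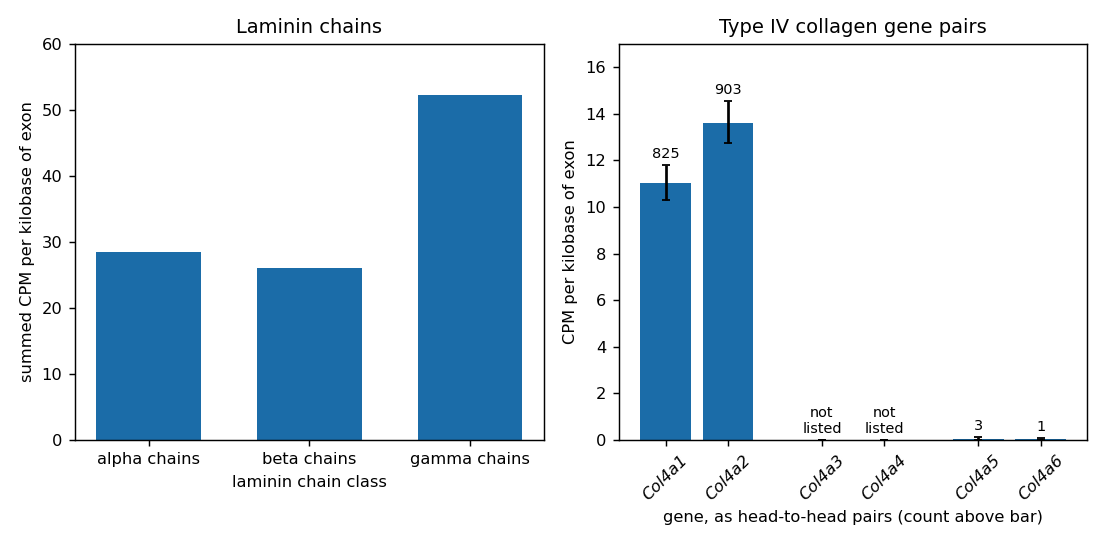
Left, levels summed over the listed laminin genes of each chain class, in CPM per kilobase of exon, without error bars; the gamma bar (52.3) is higher than the alpha (28.5) and beta (26.1) bars. Right, levels of the 6 type IV collagen genes as head-to-head pairs, with 95% Poisson intervals and the count above each bar; only Col4a1 and Col4a2 rise visibly above 0.

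Collagens XV and XVIII, which sit at the border of basement membrane and stroma, differed widely. Col18a1, whose product releases the fragment endostatin, had 931 counts and 13.2 CPM per kilobase, with 33.5% of its exonic bases under other genes. Col15a1 had 2 counts.

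Fibrillar collagens were low except for Col5a1. Type V collagen joins type I fibrils and limits their width, and its gene Col5a1 (chr2:27886425-28039514) had 451 counts and 5.30 CPM per kilobase (95% Poisson interval 4.82 to 5.82). Col5a3 had 69 counts and 1.01 CPM per kilobase, and Col5a2 was not listed. The Col5a1 to Col5a3 ratio was 5.24 (exact binomial interval 4.06 to 6.86), and 1.92 per kilobase of gene span. Genes of type I collagen, the main protein of bone and tendon fibrils, were close to each other, Col1a1 with 58 counts and Col1a2 with 66. Their ratio per kilobase of exon was 1.66 (1.15 to 2.40), but 0.793 per kilobase of the longest coding transcript, so their order was not settled. Col2a1, the cartilage collagen, had 62 counts. Col27a1 had 16 counts, Col11a1 3 and Col11a2 1. Col3a1, a collagen of skin and vessels, and Col24a1 were not listed, and neither lies inside another gene.

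Nonfibrillar collagens outside the basement membrane class were mostly at or near the limit of detection. Of 25 annotated genes 21 were listed and 9 detected, or 36.0% (Clopper-Pearson 95% interval 18.0 to 57.5), beside the background of 55.1%. Genes of a list are not replicates, so such a share is not tested against the background. The median was 0.116 CPM per kilobase over the listed ones. Col9a2, which encodes a chain of the fibril-associated type IX collagen of cartilage, was highest with 202 counts and 6.51 CPM per kilobase. Its partner chain genes Col9a3 and Col9a1 had 17 counts and 1 count. Col19a1 followed with 78 counts and Col13a1, a transmembrane collagen, with 46. Type VI collagen forms beaded filaments from 3 different chains. All 6 of its annotated genes were listed, but only Col6a1 with 34 counts was detected, against 2 for Col6a2 and 1 for Col6a3. The lowest detected gene per kilobase was Col22a1 with 13 counts, or 0.141 CPM per kilobase. Near the limit, Col23a1 with 12 counts stood at CPM 1.20 and Col16a1 with 10 counts at 0.998. Col8a1, Col12a1 and Col28a1 were not listed, nor was Col10a1, which lies wholly inside Nt5dc1.

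Start regions of 4 members are shown next, picked after the values were seen: Lama5 and Lama2, a high and a low laminin alpha chain gene, and Col5a1 and Col3a1, the highest fibrillar collagen gene and one that was not listed. Each is the 250 bases before the RefSeq start on GRCm38.p6, on the strand of the gene, in a window with no annotated exon. Capitals mark the GC box GGGCGG or CCGCCC, the CCAAT box CCAAT or ATTGG and the TATA box TATAAA or TTTATA, searched on both strands.
Lama5, chr2:180225860-180226109, minus strand: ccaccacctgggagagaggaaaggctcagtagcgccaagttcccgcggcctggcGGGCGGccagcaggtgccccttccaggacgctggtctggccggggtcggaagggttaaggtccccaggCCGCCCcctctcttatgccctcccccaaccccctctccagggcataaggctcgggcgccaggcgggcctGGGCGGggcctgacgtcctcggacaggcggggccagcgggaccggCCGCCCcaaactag
Lama2, chr10:27616943-27617192, minus strand: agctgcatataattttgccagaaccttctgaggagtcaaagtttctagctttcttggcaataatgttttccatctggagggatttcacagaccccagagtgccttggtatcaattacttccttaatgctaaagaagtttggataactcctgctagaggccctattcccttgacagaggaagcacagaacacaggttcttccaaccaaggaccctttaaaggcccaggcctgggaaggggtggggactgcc
Col5a1, chr2:27886175-27886424, plus strand: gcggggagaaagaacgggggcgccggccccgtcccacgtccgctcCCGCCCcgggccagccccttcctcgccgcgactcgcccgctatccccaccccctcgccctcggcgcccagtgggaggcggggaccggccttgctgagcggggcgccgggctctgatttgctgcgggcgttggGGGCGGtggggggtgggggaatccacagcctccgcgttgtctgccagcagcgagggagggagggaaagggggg
Col3a1, chr1:45311288-45311537, plus strand: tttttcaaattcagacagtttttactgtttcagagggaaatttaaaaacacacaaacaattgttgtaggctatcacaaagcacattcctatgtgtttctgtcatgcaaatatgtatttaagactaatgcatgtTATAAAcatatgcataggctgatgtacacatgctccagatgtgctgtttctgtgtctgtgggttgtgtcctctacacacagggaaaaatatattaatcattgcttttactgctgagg
Lama5 has 19 CpG dinucleotides and 4 GC boxes in its window, and Lama2 has 0 of either. The RefSeq start used for Lama2, at base 27616942, lies inside the GENCODE M21 gene, which begins at base 27619758 on the minus strand. The Lama2 window is thus internal to that gene, whereas the other windows shown end at the GENCODE start. Col5a1 has 28 CpG dinucleotides and 2 GC boxes, and Col3a1 has no CpG and 1 TATA box. Over all 32851 start windows of the table, the median was 6 CpG, 32.7% held a GC box, 33.8% a CCAAT box and 12.4% a TATA box. The split between these genes did not hold for every member. Mmp24 has 33 CpG in its window and only 4 counts, while the single window of Lamb2 has 3 CpG and the gene 1185 counts. The RefSeq start used for Lamb2, at base 108479862, also lies inside the GENCODE M21 gene, which begins at base 108479736. The Lamb2 window overlaps 2 annotated exons. Windows were found for 68 of the 96 annotated genes (70.8%), too few for a summary over the set, and a matched motif is a description and not a binding site.

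Fibronectin and Sparc were, with Nid2, the most abundant matrix genes per kilobase. Fn1 (chr1:71585520-71653200) encodes fibronectin, the ligand of integrin alpha5 beta1. It had 9451 counts, or 943 CPM (95% Poisson interval 924 to 963), and 80.7 CPM per kilobase. Sparc (chr11:55394500-55423183), a collagen-binding glycoprotein of basement membranes, had 3851 counts and 101 CPM per kilobase. The fibrillin genes, which encode the microfibrils of elastic tissue, were far lower, Fbn2 with 132 counts and 0.997 CPM per kilobase and Fbn1 with 52 counts and 0.428. Vtn, the gene of vitronectin, a plasma protein that is also used to coat culture dishes, was not listed.

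A few genes held most matrix counts. All 73 listed genes had 42955 counts in total, or 0.429% of the table. Fn1 alone held 22.0% of them, and Fn1, Nid2, Lamc1, Sparc, Agrn and Nid1 together held 67.7%. At the other end, 14 listed genes had 3 counts or fewer and 8 had exactly 1. Over all 96 annotated genes 45 were detected, or 46.9% (Clopper-Pearson 95% interval 36.6 to 57.3), against the background of 55.1%. Among listed genes, 61.6% were detected, against 80.1%.

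**Figure D3:**
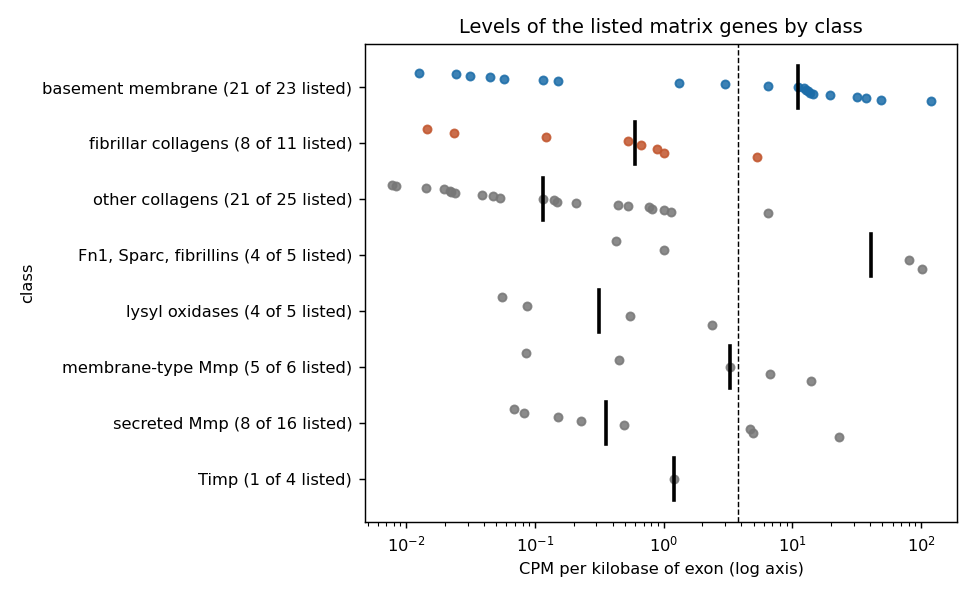
Level of every listed matrix gene by class, in CPM per kilobase of exon on a log axis; each point is a gene, the thick bar is the class median and the dashed line the median of all listed genes (3.80). Only basement membrane genes (median 11.0) and the group of Fn1, Sparc and fibrillins (40.9) have class medians right of the dashed line. The 40.9 is the midpoint between Fn1 (80.7) and Fbn2 (0.997), and both fibrillins lie left of that line.

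Lysyl oxidases, which cross-link collagen and elastin, were low. Loxl1 had 79 counts and 2.39 CPM per kilobase, Loxl4 23 counts and 0.545, and these 2 genes were detected. Loxl3 had 4 counts and Loxl2, whose product also cross-links type IV collagen, had 3. Other annotated genes cover 41.7% of the exonic bases of Loxl2. Lox, the founding member, was not listed, and 20.8% of its exonic bases lie under an antisense gene.

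Matrix metalloproteinases were detected for 8 of 22 annotated genes, or 36.4% (Clopper-Pearson 95% interval 17.2 to 59.3), beside the background of 55.1%. The detected ones were not the classical collagenases. Mmp11, stromelysin 3, which is activated inside the cell, was highest with 636 counts and 22.9 CPM per kilobase (95% Poisson interval 21.1 to 24.7). Among membrane-bound enzymes, Mmp15 had 754 counts and 13.9 CPM per kilobase, and the lipid-anchored Mmp17 had 445 counts and 6.71. Mmp14, the best known activator of the gelatinase Mmp2, had 194 counts and 3.25 CPM per kilobase.

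Mmp2 itself, which cuts type IV collagen, had 168 counts and 4.97 CPM per kilobase, and the other gelatinase gene, Mmp9, had 8 counts. Mmp23, made in a membrane-anchored form and grouped here with the secreted enzymes, had 110 counts. Mmp25 had 24 counts, Mmp28 had 19 and Mmp24, below the limit, had 4. The collagenase genes Mmp8 and Mmp13 and the stromelysin genes Mmp3 and Mmp10 were not listed. They lie in a cluster of 9 annotated Mmp genes on chromosome 9 (chr9:7272514-7699585), in which only Mmp12 with 6 counts and Mmp1b with 1 were listed. Of the exonic bases of Mmp1b, 25.5% lie under other annotated genes. In the same cluster Mmp7 and Mmp20, also not listed, have 49.5% and 61.5% of their exonic bases under other genes. Mmp27, also of the cluster, was not listed either. Outside it, Mmp16 and Mmp19 were not listed, and Mmp19 lies inside the annotated gene Gm47093.

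Of the genes of the metalloproteinase inhibitors only Timp2, with 47 counts and 1.20 CPM per kilobase, had a value. Timp1 (chrX:20870166-20874735) lies inside Syn1, Timp3 (chr10:86300372-86349506) inside Syn3 and Timp4 (chr6:115241892-115252205) inside Syn2, each on the strand opposite to its synapsin gene. None of the 3 was listed. Over the whole annotation, 5.59% of 1271 genes that lie inside another gene were listed, against 72.5% of the 20653 others, so no level can be read for these Timp genes. Among the 23 unlisted matrix genes, 5 lie inside another gene, 4 more have over 10% of their exonic bases under one, and 14 have less.

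**Figure D4:**
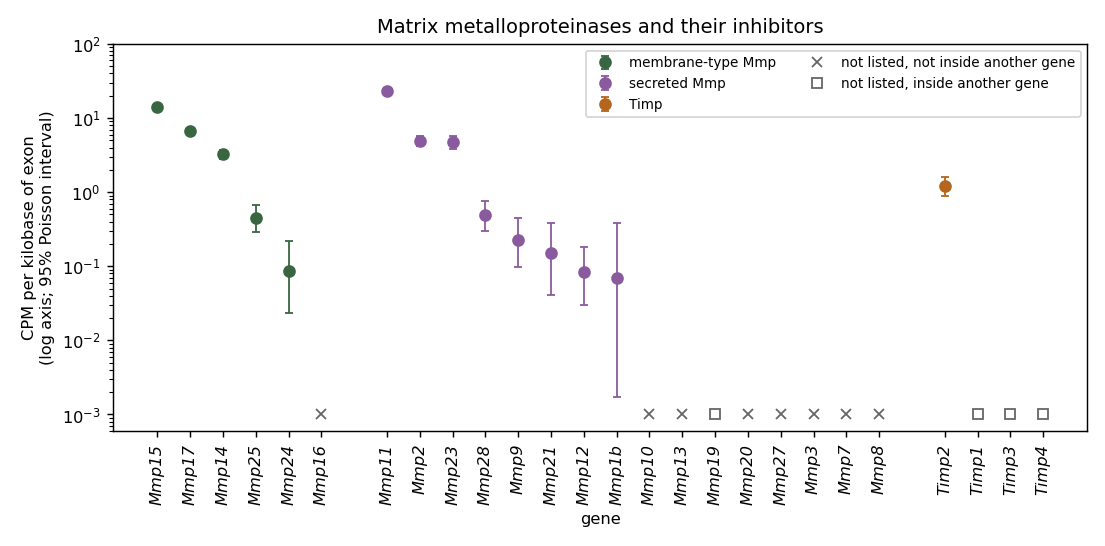
Level of each metalloproteinase and inhibitor gene in CPM per kilobase of exon on a log axis, with 95% Poisson intervals for counting error; crosses and squares at the bottom mark genes that were not listed and have no value, the squares those inside another gene. Mmp11 is highest at 22.9, and 3 of the 4 Timp genes are squares.

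All 25 annotated genes of collagen folding, modification and processing were listed and 23 were detected, or 92.0% (Clopper-Pearson 95% interval 74.0 to 99.0). The background was 55.1% of annotated and 80.1% of listed genes. The lists were chosen with earlier results of these data known, so setting a share beside the background tests nothing. These 25 genes had a median of 5.83 CPM per kilobase. The highest were P4hb, the beta subunit of prolyl 4-hydroxylase and also a general disulfide isomerase, with 7647 counts, the collagen chaperone gene Serpinh1 with 2774 and the galactosyltransferase gene Colgalt1 with 3256. Per kilobase they stood at 267, 113 and 75.1 CPM. The lowest detected per kilobase was Tll1, a procollagen C-proteinase gene, with 13 counts. Of 44 annotated collagen genes 18 were detected, or 40.9% (26.3 to 56.8), beside the same 55.1% of all annotated genes.

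Other basement membrane genes were detected in 10 of 13 annotated cases, or 76.9% (Clopper-Pearson 95% interval 46.2 to 94.96), beside the background of 55.1%. Fbln1, a fibulin, led with 1544 counts, then the netrin gene Ntn1 with 1277 and Smoc1 with 555. Pxdn, whose peroxidase forms the sulfilimine cross-link of type IV collagen, had 337 counts, and the lowest detected per kilobase was Fras1 with 11. Matrix receptor genes were detected in 17 of 19 cases, or 89.5% (66.9 to 98.7), with a median of 7.89 CPM per kilobase. The background was 55.1% of annotated and 80.1% of listed genes. Itgb1, the beta1 integrin shared by most laminin and fibronectin receptors, had 4723 counts, the syndecan gene Sdc4 had 2687 and the dystroglycan gene Dag1 had 3009. Itga7 was the lowest detected per kilobase with 14 counts. The genes not detected were those of collagen-binding integrins, Itga1 with 2 counts and Itga2, which was not listed. The collagen receptor genes Ddr1, with 223 counts, and Ddr2, with 54, were detected. Other interstitial matrix genes were detected in 5 of 13 cases, or 38.5% (13.9 to 68.4), beside the same 55.1% of annotated genes. Their median was 0.229 CPM per kilobase over 7 listed ones. Vcan, which encodes versican, led with 609 counts, then Acan with 40 and Thbs2 with 31, and Eln with 11 was the lowest detected per kilobase. Postn, Dcn and Lum were not listed.

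Markers were read to set the matrix levels beside the cell types that could supply them. All 10 pluripotency markers were detected, led per kilobase by Dppa5a with 47245 counts, Nanog with 9026 and Pou5f1 with 7100, and lowest per kilobase at Tbx3 with 1829. Extraembryonic endoderm, whose parietal cells make large amounts of Sparc, laminin and type IV collagen, had 6 of 12 markers detected. That share, 50% (21.1 to 78.9), lay near the background of 55.1%, and the summed CPM of the list was 38.0. The highest endoderm markers were Gata4 with 127 counts, Sox17 with 81 and Dab2 with 84, and Gata6 was the lowest detected per kilobase with 19. Foxa2 had 2 counts, and Afp and Cubn were not listed. Other annotated genes cover 63.8% of the exonic bases of Afp and 23.8% of those of Cubn. Of 8 fibroblast markers, 2 were detected, or 25.0% (3.19 to 65.1), beside the same background. They were Thy1 with 267 counts and Pdgfrb with 61, and the summed CPM of the list was 32.9. Acta2 had 2 counts, and Twist2, Prrx1, Tagln, S100a4 and Fap were not listed. Other genes cover 72.6% of the exonic bases of S100a4, 67.9% for Tagln, 46.5% for Twist2 and 10.2% for Prrx1, but none for Fap. For the overlapped markers of both lists, no level can be read from their absence. The part of such cells in the matrix levels was not tested.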

How the data were processed

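Raw counts, 1 column for protein-coding gene symbols, were deposited by the authors. They ranged from 1 to 117610 and summed to 10017978. The table is named for the line and treatment and its count column for no library, and whether it pools both libraries was not given in the sources used here. Poly(A) RNA was selected on oligo-dT beads, fragmented and ligated to adaptors, per the labels' protocols. The submitters' processing notes name GRCm38.p6, featureCounts, Subread 1.6.4, HISAT2, SAMtools and Trimmomatic 0.38. The annotation, strand setting and counted feature were not given in the sources used here. Row order tracked counts divided by gene span (Spearman rho 0.9999 across genes).

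Of the listed symbols, 14896 matched GENCODE M21 (GRCm38) and 156 more did so by RefSeq synonyms. CPM used the table total, and exon length was the union of all annotated exons. Shares had Clopper-Pearson 95% intervals over the genes of a list, which carry no counting error. Genes are not replicates, so these intervals describe a share and test nothing. Single counts had exact Poisson and ratios exact binomial 95% intervals, both for counting error only. For summed chains the interval of the count ratio was rescaled by length. Exonic overlap was the share of exonic bases under the span of any other annotated gene. Functions were tested on simulated counts. The members and lists were chosen with earlier results of these data known. The rule for naming genes took all basement membrane, fibrillar, glycoprotein and Timp genes, the 3 highest per kilobase and the lowest detected in each other list, members next to the CPM limit and unlisted genes that overlap others. Others were named after their values were seen, and 1 gene within the rule is not reported here by name. Alternatives were other minimums, pseudocounts, lengths and class memberships. Protein sequence features had been planned and were not analysed here. Scripts ran in Python 3.11.15 with scipy 1.17.1, numpy 2.4.6, matplotlib 3.10.9 and pandas 2.3.3.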

Additional observations from a re-analysis of the deposited data

How the results depend on the processing

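Basement membrane genes had the higher median under all 10 alternatives to the difference of 2.91. It was 3.58 without a length correction, 4.0 with a pseudocount of 0.1, 2.23 among genes with at most 0.1 of their exonic bases under another gene and 0.56 per kilobase of gene span. Median levels per kilobase of span were below 1, so the pseudocount of 1 narrowed that last difference. The length used narrowed it too, as the class levels per kilobase of span were closer even without a pseudocount. The counts of detected genes stayed within 1.5 times under every minimum tried, with 34 to 52 matrix genes for the 45 of the main setting. Ratios between chains depended on the length used. On counts, Col4a1 to Col4a2 was 0.914, Lama1 to Lama5 0.970, laminin alpha to gamma 0.693, beta to gamma 0.426 and Col1a1 to Col1a2 0.879. Per kilobase of the longest coding transcript, alpha to gamma was 0.495, beta to gamma 0.556 and Col1a1 to Col1a2 0.793. Per kilobase of gene span, Col4a1 to Col4a2 was 1.09, Lama1 to Lama5 0.383, alpha to gamma 1.03 and beta to gamma 3.02. The cause was not tested. Leaving out a library could not be run, because the table has 1 column.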
